A study of Hemigymnus melapterus and Thalassoma lunare and Coris batuensis with 46 samples.

Results

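In a forebrain slice of 5 wrasse species, 73 transcripts stood well above their level in every other species in Thalassoma lunare, the moon wrasse. They were found among 1936 transcripts that had a total count of 100 or more, out of 26788 listed in the count tables. A member had to meet 1 condition on its species levels, where a level is log2 of the species mean of CPM, the count scaled to the library total, plus 10. When the 5 levels were sorted, the largest step between neighbours had to be at least 1 and had to place Thalassoma alone at the top. That step is called the gap here, and members are ranked by it from 1 to 73. The levels of Thalassoma and the other species chose the members, so these levels are given as a description and are not tested.

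The tissue was 1 slice of 300 µm per female fish, with the pallial areas Dl and Dm and parts of the septum and striatum. As labelled, 3 groups were facultative cleaners: Thalassoma lunare (10 fish), Halichoeres melanurus (9 fish) and Hemigymnus melapterus (10 fish). Coris batuensis (9 fish) and Labrichthys unilineatus (8 fish) were labelled non-cleaners. The fish were untreated as far as the labels say, heads went into RNAlater, and death followed capture by 6 to 28 minutes in all groups.

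Facultative cleaners are fishes that pick parasites off other fishes for part of their diet or part of their life, while non-cleaners do not. In teleosts, Dl is regarded as a counterpart of the mammalian hippocampus and Dm of the basolateral amygdala, areas tied to spatial memory and to emotional learning. A 3′ tag library reads 1 end of each polyadenylated transcript, so counts follow the number of transcripts and need no correction for length. One set of identifiers served for the counts of all 5 species. A count can therefore differ between species through sequence match to the reference as well as through abundance, and these cannot be told apart here. The deposited tables do not pair the identifiers with gene names, so the members' functions are not stated, no sequence is shown, the tissue's defining markers were not checked, and 3 identifiers are printed.

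The selection left out 3 libraries, a choice made before the members were picked and with earlier results of these data known. The library labelled Hemigymnus melapterus 4 held 6936 counts. Once the members were picked, those labelled Halichoeres melanurus 2 and Thalassoma lunare 4 had member levels that went against their labels. The 43 libraries used held 14800 to 53987 counts, and 1 count in a library of median depth was worth 29.5 CPM. Thalassoma libraries were the deepest on average, at 43303 ± 5009 counts (SD, n = 9). Its share of reads left unaligned in the second set of tables was also the highest, at 61.1% ± 1.39 (SD, n = 9), against species means of 47.0% to 58.8% in the others. The part of depth and of alignment in the members' levels was not tested beyond the settings named in the text.

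Together the members took 3.54% ± 0.16 of all counts in Thalassoma (SD, n = 9 fish). Halichoeres gave 0.609% ± 0.0342 (SD, n = 8 fish) and Labrichthys 0.573% ± 0.0659 (SD, n = 8 fish). Coris gave 0.566% ± 0.0761 and Hemigymnus 0.525% ± 0.0356 (SD, n = 9 fish each). Every Thalassoma fish used, at 3.36% to 3.84%, lay above every other fish used, whose highest value was 0.682%. Of the counts of a single member, Thalassoma held a median of 70.5%, from 49.6% to 95.8%, where its fish held 26.6% of all counts. Since the libraries were made from a slice of mixed tissue, more cells that make a transcript and more of it per cell cannot be told apart.

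**Figure D1:**
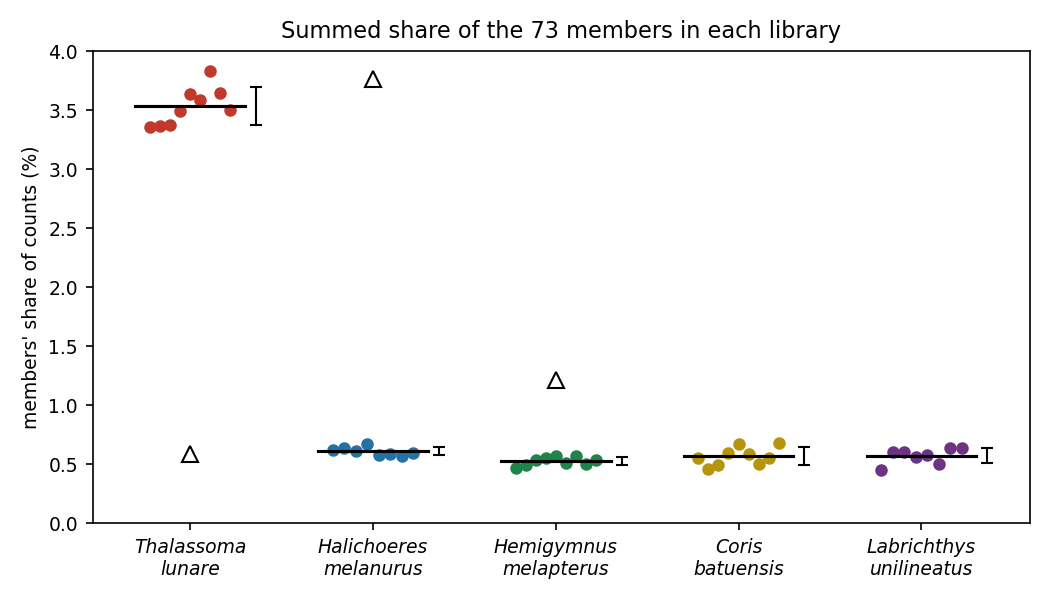
Summed share of all counts (percent, y axis) taken by the 73 members in each library, by labelled species. Filled points are the 43 libraries used, lines are means, bars beside them are 1 SD, and open triangles are the 3 libraries left out. The 9 Thalassoma fish used sit between 3.36% and 3.84%, and the triangle labelled Halichoeres melanurus 2 sits among their values at 3.77%.

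The gap ran from 1.00 to 4.48 on the log2 scale, with a median of 1.97. It was 2 or more in 36 members and 3 or more in 17. In ratios of mean CPM, Thalassoma exceeded the next species by 2.14 to 29.8 times, with a median of 4.72. The Thalassoma mean had a median of 326 CPM over the members, and was below 300 CPM in 35 of 73 and 1000 CPM or more in 6. The median member had 165 counts over the 43 libraries, and 34 members had fewer than 150.

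The threshold did not fall in an empty stretch. The 3 members nearest to it had gaps of 1.00, 1.01 and 1.07, and the 3 transcripts just below it had 0.997, 0.981 and 0.978. In all, 4 members had a gap from 1 to 1.1 and 8 transcripts a gap from 0.9 to 1. Another 16 transcripts met the gap but had totals of 90 to 99 counts.

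**Figure D2:**
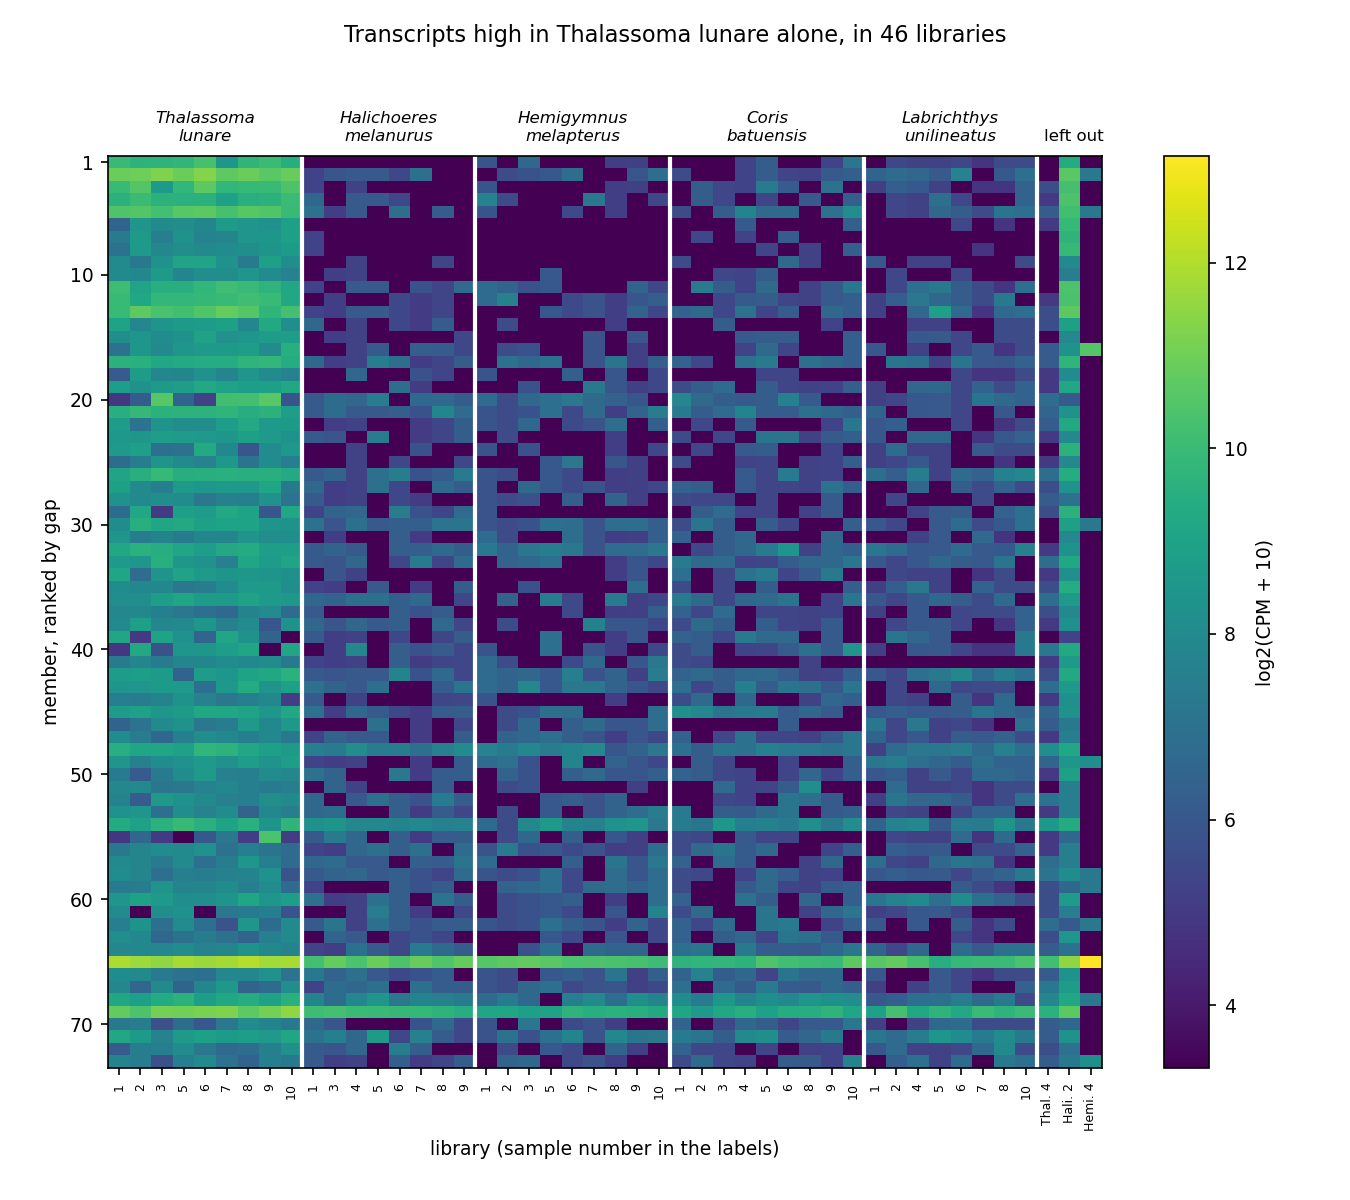
Level of each of the 73 members (rows, ranked by gap) in each of the 46 libraries (columns, grouped by labelled species, the 3 libraries left out at the right), as log2(CPM + 10). The 9 Thalassoma columns are bright through most rows, with dark cells at ranks that include 20, 29, 39, 40, 55 and 61. The column labelled Halichoeres melanurus 2 resembles these columns.

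The transcript with the largest gap, ENSONIT00000026036.1, was close to absent outside Thalassoma. Its lowest, median and highest values in the 9 Thalassoma fish were 349, 851 and 1238 CPM. It had 0 counts in all 8 Halichoeres fish, 5 counts over 9 Hemigymnus fish, 6 over 9 Coris fish and 8 over 8 Labrichthys fish, against 331 in Thalassoma. The highest value outside Thalassoma was 135 CPM, in a Coris fish, so the groups did not overlap. For the count of 0 over the 8 Halichoeres libraries, 3 counts, or 11.4 CPM, were taken as the limit. The pooled Thalassoma value, 849 CPM, was 74.2-fold above that limit. This allows for counting error in Halichoeres only, not for the spread between fish or for the choice of this transcript by its gap. The fitted log2 difference between Thalassoma and the mean of the other species was 5.74 in edgeR, with an SE of 0.26 derived from its F statistic. As Halichoeres had 0 counts, this SE is not read as the precision of the difference.

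The most abundant member, ENSONIT00000017988.1, had a different shape, since every fish of every species expressed it. Its lowest, median and highest values were 2890, 3629 and 4257 CPM in Thalassoma and 1179, 1618 and 1886 CPM in Halichoeres. In Hemigymnus they were 1098, 1339 and 1762 CPM, in Coris 805, 973 and 1622 CPM, and in Labrichthys 718, 1147 and 1741 CPM. All 9 Thalassoma fish lay above all 34 others, although the gap was only 1.18, which is rank 65 of 73. Its Thalassoma mean was 2.27 times that of Halichoeres, the next species.

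ENSONIT00000007299.1, at rank 3 with a gap of 4.11, was likewise nearly absent outside Thalassoma. It had 409 counts in the 9 Thalassoma fish, with a lowest, median and highest value of 400, 969 and 1623 CPM. The other species had 2 counts in Halichoeres, 3 in Hemigymnus, 15 in Coris and 10 in Labrichthys, with a highest single value of 159 CPM. No fish of another species reached the lowest Thalassoma fish.

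**Figure D3:**
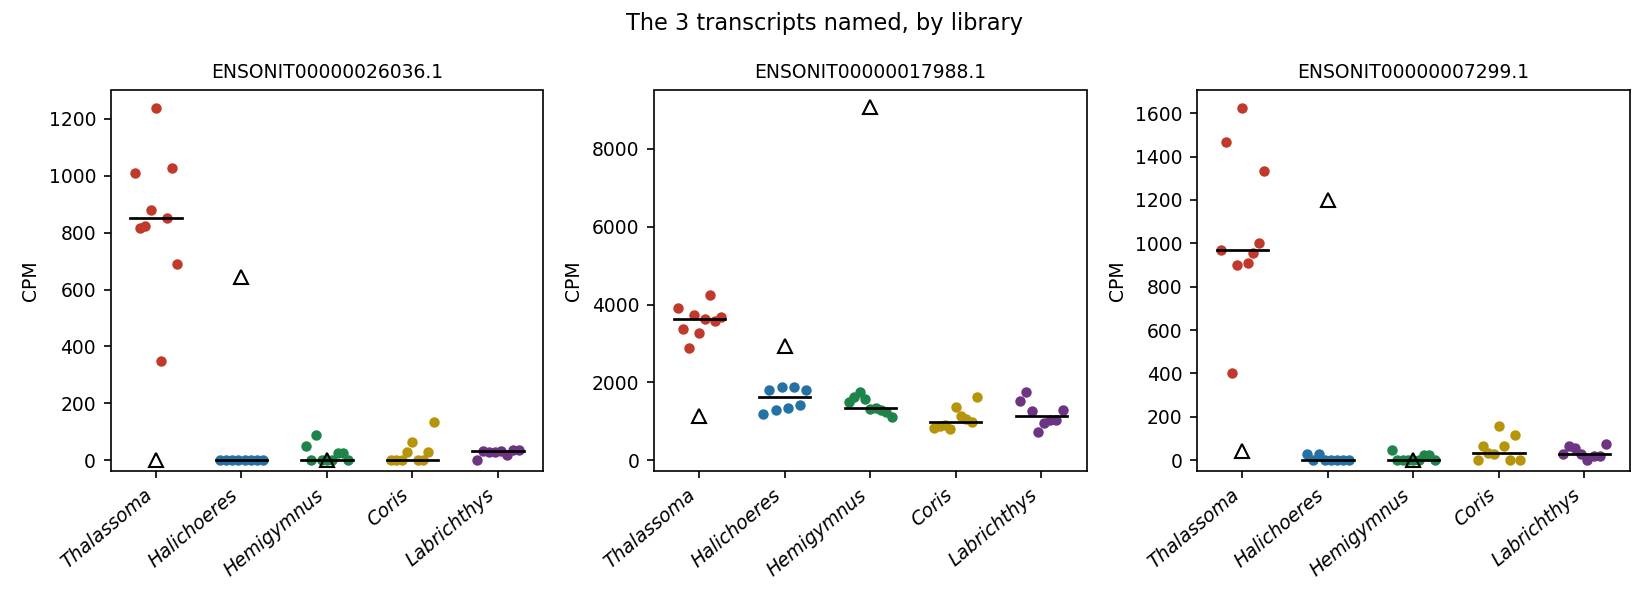
CPM (y axis, linear, 1 scale per panel) of the 3 transcripts named, in each library by labelled species. Filled points are the 43 libraries used, lines are medians, and open triangles are the 3 libraries left out. ENSONIT00000026036.1 and ENSONIT00000007299.1 lie near 0 in the used libraries outside Thalassoma, whereas ENSONIT00000017988.1 lies at 718 to 1886 CPM in those. The triangles of the library labelled Halichoeres melanurus 2 lie at 645 CPM for ENSONIT00000026036.1, 1202 CPM for ENSONIT00000007299.1 and 2931 CPM for ENSONIT00000017988.1. A triangle at 9083 CPM for ENSONIT00000017988.1 is Hemigymnus melapterus 4.

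The other 3 members with a Thalassoma mean of 1000 CPM or more and a gap above 3 stood at ranks 2, 5 and 13. The member at rank 2 averaged 1987 ± 312 CPM in Thalassoma (SD, n = 9) and at most 85.5 CPM in another species. Rank 5 averaged 1376 ± 202 CPM (SD, n = 9) against species means of at most 98.9 CPM. Rank 13 averaged 1316 ± 306 CPM (SD, n = 9) against species means of at most 111 CPM. For rank 13 the highest other fish, a Labrichthys, had 459 CPM, and 6 of the 34 other fish had 0 counts. The member at rank 69, second in abundance, was instead widely expressed, at 2105 ± 450 CPM in Thalassoma (SD, n = 9) and 604 to 951 CPM in the means of the others. Abundant members were thus of both kinds, low on average in every other species, or well expressed in all of them.

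No Thalassoma fish overlapped any other fish in 37 of the 73 members, where 2.01% of the 1936 transcripts (39) separated in that way. The selection favours such transcripts, so nothing is read from that difference. In the edgeR fit all 26 members tested differed between Thalassoma and the mean of the other species, where 50.2% of 701 transcripts did, and since the rule used this contrast nothing is read from it either. In 29 members 5 to 8 of the 9 Thalassoma fish lay above all others, in 6 members 1 to 4 did, and in 1 member none did. All 9 Thalassoma fish had at least 1 count in 69 members. At least 17 of the other 34 fish had 0 counts in 13 members, and in 5 members every fish used had a count. Only 2 members were at 3 counts or fewer in each of the other species, while 22 were at 3 or fewer in at least 1 of them and 6 were at 0 in at least 1.

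The next species below Thalassoma was Coris in 29 members, Labrichthys in 19, Halichoeres in 15 and Hemigymnus in 10. As shares of the members these were 39.7%, 26.0%, 20.5% and 13.7%. Among all 412 transcripts with their highest level in Thalassoma, Coris was next in 26.2%, Labrichthys in 26.0%, Halichoeres in 27.7% and Hemigymnus in 20.1%, and the difference was not tested. Hemigymnus had the lowest level most often, in 27 members. The share over all transcripts is not given for the lowest species, so nothing is read from that count. The levels of the other 4 species spanned a median of 1.17 within a member, and 1.15 over all 1936 transcripts.

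Little can be said on whether members also differed between the remaining cleaners (Halichoeres and Hemigymnus) and the non-cleaners (Coris and Labrichthys). Of the 73 members 26 passed the filter on low counts, which kept 701 transcripts, and 24 of these 26 passed only through their counts in Thalassoma. The 2 that also passed without the Thalassoma libraries were ENSONIT00000017988.1 and the member at rank 69. ENSONIT00000017988.1 was higher in the mean of the cleaners by 0.33 (log2, SE 0.11, adjusted p = 0.0105 by edgeR's quasi-likelihood test with Benjamini-Hochberg adjustment). Of all transcripts tested, 17.0% were called higher in the cleaners. By pair, only Halichoeres minus Coris was called, at 0.55 (edgeR adjusted p = 0.00253). Halichoeres minus Labrichthys was 0.33, Hemigymnus minus Coris 0.32 and Hemigymnus minus Labrichthys 0.10 (edgeR adjusted p from 0.0672 to 0.604). For the contrast of cleaners and non-cleaners, the adjusted p of ENSONIT00000017988.1 ran from 0.00125 to 0.172 over the alternatives, with the highest value when no filter was used. Rank 69 differed by 0.05 in the same fit (SE 0.13, edgeR adjusted p = 0.765), a mean over pairs of opposite sign. Halichoeres minus Coris was 0.60 and Hemigymnus minus Labrichthys -0.49 (edgeR adjusted p = 0.00497 and 0.0197). Halichoeres minus Labrichthys was 0.14 and Hemigymnus minus Coris -0.03 (edgeR adjusted p = 0.55 and 0.92). Within status, Halichoeres minus Hemigymnus was 0.63 and Coris minus Labrichthys -0.47 (edgeR adjusted p = 0.00286 and 0.028). Status is a property of whole species here, so p-values over fish describe these 4 species only.

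For the other 24 members the counts in the 4 species were too few to pass the filter without Thalassoma. No p is given for any of them. Not all were nearly absent there, since rank 54 had 63 counts in Halichoeres, 54 in Hemigymnus, 55 in Coris and 54 in Labrichthys. ENSONIT00000007299.1 had 5 counts in the 17 cleaner fish and 25 in the 17 non-cleaner fish. ENSONIT00000026036.1 had 5 and 14 counts in the same groups. Both are picked extremes, since they had the most negative fitted differences past the threshold. With the left-out libraries included as labelled, the fitted difference of ENSONIT00000007299.1 went from -1.87 to 0.01. That of ENSONIT00000026036.1 changed sign, from -1.63 to 0.58. As a bare count, edgeR called 9 of the 26 members between cleaners and non-cleaners at an adjusted p below 0.05, 1 higher and 8 lower. All transcripts tested gave 41.5%, with 17.0% higher and 24.5% lower. Since 8 of the 9 members entered the test only through Thalassoma, nothing is read from this count.

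The same limit holds for the 6 pairs of species without Thalassoma. At least 1 pair differed in 15 of the 26 members, beside 79.2% of all transcripts tested. Halichoeres and Hemigymnus differed in 5 of 26 (45.9% of all transcripts) and each of the other 5 pairs in 6 of 26 (36.1% to 46.4% of all transcripts). The rule limits steps among these species, so nothing is read from these counts either.

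The rule did not read the spread among the Thalassoma fish, but it read their mean, which a few high fish can raise. Over the 9 fish, the median Pearson correlation between 2 members was 0.00 over 2628 pairs, with 20 pairs above 0.8. These fish share species, tissue and protocol, and counting noise at these depths pulls a correlation toward 0, so the values are a description only. The variance between fish was a median of 1.54 times the counting variance in the members, and 1.25 times in the 1088 transcripts with a mean of at least 5 counts in Thalassoma. The ratio was above 5 in 7 of 73 members and in 37 of the 1088. Selection on a mean favours transcripts with a few very high fish. The median of the mean count per library was also higher in the members, at 14.1 against 10.7, so nothing is read from the difference in spread.

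**Figure D4:**
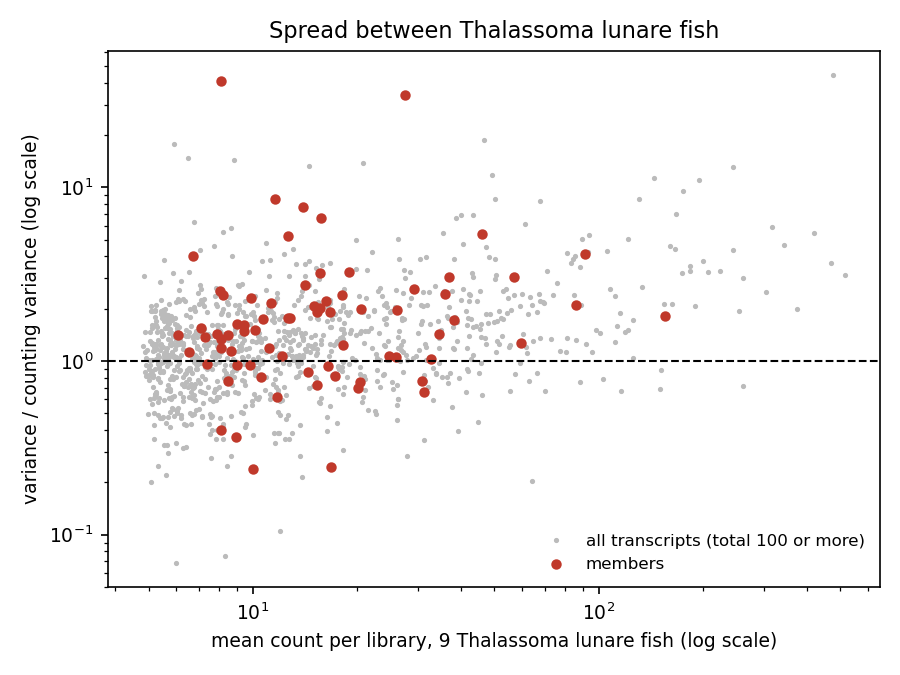
Variance between the 9 Thalassoma fish divided by the variance expected from counting (y axis, log scale) against the mean count per library (x axis, log scale). Grey points are the 1088 transcripts with a total of 100 or more and a mean of at least 5 counts in Thalassoma, red points are the 73 members, and the dashed line is at 1. Most members lie near 1 to 3, and 2 members lie at 41.0 and 34.2.

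The 5 members described next, chosen for high ratios, went between high and near-background counts from fish to fish, and were picked after their values were seen. The member at rank 20 had 70, 49, 47 and 62 counts in Thalassoma 3, 7, 8 and 9, and 1 to 4 counts in the other 5 fish. Its highest count in any other species was 7. The 4 high fish lay above every other fish in the series that was used, and the 5 low fish lay among the other species.

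The member at rank 55 rested on 1 fish. Thalassoma 9 had 51 counts, or 1309 CPM, and the other 8 fish had 0 to 6 counts. Without that fish Thalassoma was no longer the highest species, so its place among the members rests on 1 library. The member at rank 39 had 27, 23, 15, 24 and 12 counts in Thalassoma 1, 3, 5, 7 and 8, and 0 to 3 counts in the other 4 fish.

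The members at ranks 29 and 40 were low in the same 3 fish, Thalassoma 1, 3 and 9. There rank 29 had 5, 1 and 2 counts and rank 40 had 1, 2 and 0, while the other 6 fish had 15 to 27 counts of the first and 13 to 29 of the second. Their Pearson correlation over the 9 fish was 0.89, and their highest counts in fish of other species that were used were 5 and 8. Rank 39 did not share their pattern (r = -0.35 with rank 29 and -0.29 with rank 40). Thalassoma 9 was thus high for ranks 20 and 55 and low for ranks 29, 39 and 40. It held 38969 counts, and the 9 fish held 36350 to 49935.

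**Figure D5:**
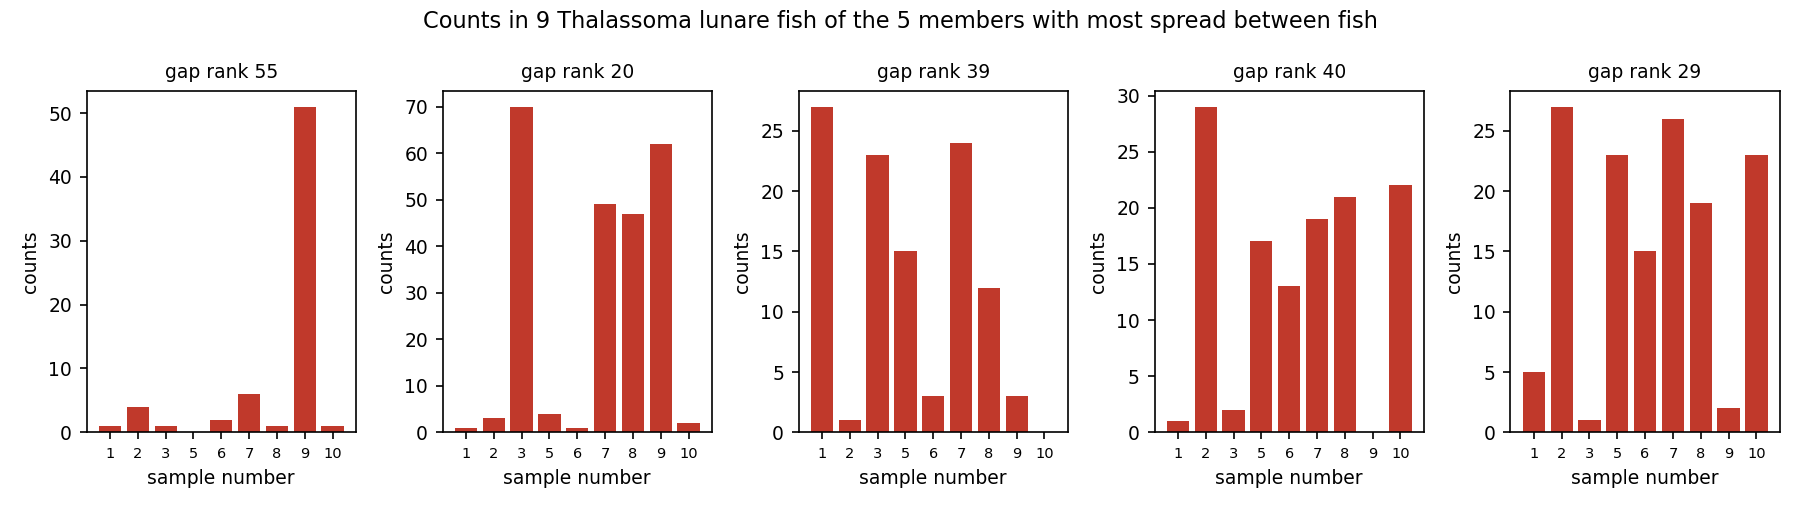
Raw counts (y axis, 1 scale per panel) in the 9 Thalassoma fish used (x axis, sample number) of the 5 members with the most spread between fish beyond counting. Rank 55 is high only in fish 9, rank 20 in fish 3, 7, 8 and 9, and ranks 29 and 40 are low in fish 1, 3 and 9.

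Single fish also decided members near the thresholds. Of the 73 members, 67 kept the gap when each Thalassoma fish was left out in turn. The 6 that lost it were rank 55 and 5 members whose gap was below 1.2 to begin with, and those 5 fell at lowest to 0.862. With the minimum total of 100 counts applied again as well, 63 to 67 of the 73 were still members without 1 fish.

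Some members may not be separate measurements. The 3 members at ranks 6, 7 and 8 have identifiers with consecutive numbers and totals of 119, 118 and 113 counts. Their levels, as log2(CPM + 10), moved together over the 9 Thalassoma fish. The values of r were 0.91 (ranks 6 and 8), 0.87 (ranks 7 and 8) and 0.70 (ranks 6 and 7). In Thalassoma 10 they had 19, 19 and 16 counts, and in Thalassoma 1 they had 4, 8 and 6. Another pair of consecutive identifiers, at ranks 25 and 41, had totals of 108 and 103 but r = 0.30. Whether reads were divided between near-identical sequences was not tested, and the 73 members are therefore not counted as 73 independent genes.

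The libraries left out of the selection gave values that it had not used. In the library labelled Halichoeres melanurus 2 the members took 3.77% of counts, inside the Thalassoma range, and 60 of 73 lay above all 34 fish of the other species, as 58 to 63 did in single Thalassoma fish. ENSONIT00000026036.1 had 645 CPM there, from 22 counts, where the other 8 Halichoeres fish had 0. In the library labelled Thalassoma lunare 4 the members took 0.586%, within the ranges of Halichoeres, Coris and Labrichthys, and 1 of 73 lay above all other species. It had 0 counts of ENSONIT00000026036.1 and 2 of ENSONIT00000007299.1. The share of all 1936 transcripts above the other species is not given for single libraries. The rule favours members that are high in the Thalassoma fish, so these counts are a description only. Leaving the libraries out was decided with earlier results of these data known. The values describe how far the libraries depart from their labels, and whether they were exchanged was not tested.

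The members that varied among Thalassoma fish also took one or the other state in the library labelled Halichoeres melanurus 2. It had 27 counts of rank 29 and 21 of rank 40, as in the 6 high fish. It had 2 of rank 20, 3 of rank 55 and 1 of rank 39, as in the low fish. Those low counts also lay within the other species used, whose highest counts were 7, 6 and 5 for ranks 20, 55 and 39.

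The same condition applied to the second set of tables, with the same reads counted on Ldim_g genes, found 42 genes high in Thalassoma alone among 1755 with a total of 100 or more. Their gaps ran from 1.00 to 4.26, with a median of 1.38. In 14 of the 42 no Thalassoma fish overlapped any other, beside 1.14% of the 1755. The next species was Halichoeres in 14, Labrichthys in 12, Hemigymnus in 9 and Coris in 7, an order that differed from that of the ENSONIT members, where Coris led. In the library labelled Halichoeres melanurus 2, 28 of the 42 lay above all 34 fish of the other species, and in Thalassoma lunare 4 this held for 2. The share over all 1755 genes is not given for these libraries, so both counts are a description only. The sources do not link the 2 kinds of identifier, so how many members the sets share is not known.

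Sets of the same kind existed for every species in the ENSONIT counts. There were 76 transcripts high in Labrichthys alone, 48 in Hemigymnus, 43 in Coris and 33 in Halichoeres, beside the 73 of Thalassoma. In the Ldim_g counts the numbers were 67, 43, 17 and 33 beside 42, so the order of the species differed between the references.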

How the data were processed

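The authors deposited a pair of count tables per fish, with whole-number counts whose totals differ, so they were taken as not normalized. One lists 26788 ENSONIT identifiers plus an unnamed line with 0 counts, the other 28134 Ldim_g identifiers plus 5 lines for reads given to no gene, which held 95.2% of its reads and were left out. The ENSONIT counts were also a small part of the reads. The 9 Thalassoma libraries used held a mean of 43303 ENSONIT counts, where their second tables held a mean of 918965 reads. Tools listed in the submitters' processing notes are cutadapt 2.8, BWA and SAMtools. Neither the reference nor the counter is given in the sources used here.

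CPM was computed over all ENSONIT rows, with no molecular identifiers mentioned, so intervals and limits cover counting error only. Tests used edgeR 4.0.16 in R 4.3.3 on 43 libraries: filterByExpr by species, TMM, and 1 coefficient per species in a quasi-likelihood fit, with a biological coefficient of variation of 0.192. Each contrast had its own Benjamini-Hochberg adjustment. The SE of a fitted difference was derived, as the size of the difference divided by the square root of its F statistic. The fit was tested on simulated data. DESeq2 1.42.0 was an alternative. TMM raised the median difference between Thalassoma and the other species over the 1936 transcripts by 0.15 (log2) relative to CPM. No labels tie fish to shared cultures, tanks or batches.

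Members and rules were chosen with earlier results of these data known. Named transcripts were the member with the largest gap, that with the highest Thalassoma mean CPM, and the 2 with the most negative fold change between cleaners and non-cleaners past the threshold, 1 of which was already named. Of 190 pairs of libraries within species, 0 were identical (highest chi-square p = 8.61e-09). Sample numbers recur across species and were not used to pair fish in the main fit.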

Additional observations from a re-analysis of the deposited data

Results flagged for a closer look

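Dixon's test at 95% was applied to the extreme fish of 25 groups, and 2 stood apart. Its nominal rate of about 1 in 20 groups by chance does not hold for members picked for their spread. Nor does it hold for transcripts with very few counts per library, so no conclusion is drawn from the number of flags. The member at rank 55 stood at 1309 CPM in Thalassoma 9, far above the other 8 fish. It had been picked for its spread, with a variance 41.0 times the counting variance. ENSONIT00000026036.1 stood at 135.1 CPM in Coris batuensis 10, which was 2 counts in the shallowest library used.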

How the results depend on the processing

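The count of 73 members moved by less than 1.5 times with all 46 libraries (64, of which 57 were among the 73), without Coris batuensis 10 (73), with other pseudocounts (77 and 73), a gap of 1.5 (53), TMM (84), medians (71) or thinning to 14800 counts (70). It ran from 64 to 71 when single Thalassoma fish were left out, with 63 to 67 of the 73 kept. A minimum total of 50 counts gave 170, a minimum of 200 gave 27 and the Ldim_g counts gave 42. Chosen after seeing the data, totals over all 46 libraries gave 87 and leaving out Hemigymnus melapterus 4 alone gave 65. With all 46 libraries the gap of ENSONIT00000017988.1 was 0.61, below the threshold, and that of ENSONIT00000026036.1 was 3.25.

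The 9 of 26 members called between cleaners and non-cleaners became 1 of 31 with all 46 libraries, beside 234 of all 720 transcripts tested. Without the Thalassoma libraries in the fit 1 of 2 was called, beside 241 of 580. With no filter on low counts 4 of 73 were called, beside 1006 of 25207. Under the other 5 settings 7 to 9 of 26 were called, beside 273 to 291 of 691 or 701. Without Thalassoma fewer members passed the filter, and with no filter 25207 transcripts shared the adjustment. Members called in any pair were 15 of 26 in the main fit, 21 of 31 with all 46 libraries and 16 of 73 with no filter. They were 14 or 15 of 26 under the other settings. The share over all transcripts is given for the main fit only (79.2%), so nothing is read from these counts. Over all transcripts Thalassoma differed from the mean of the others in 352 of 701 (50.2%), and in 2451 of 25207 with no filter. A replicate block on the sample number gave 9, 15 and 349 in the same order. To compare numbers, each species' mean was subtracted from log CPM per transcript, and only fish of different species were paired. Pairs that share a number then had a mean correlation of -0.0154 over 73 pairs, and pairs with different numbers 0.00187 over 666. At these depths a mean near 0 cannot exclude a shared order, and the numbers were treated as names. Depth limits any statement on members at a few counts outside Thalassoma.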

Other observations

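The library labelled Hemigymnus melapterus 4 was left out of all comparisons above except those with all 46 libraries. Those included the gap of 0.61 for ENSONIT00000017988.1. This library held 84 counts of members in 11 of the 73, and 63 of these 84 counts were ENSONIT00000017988.1. The resulting 9083 CPM was above the 1098 to 1762 CPM of the other Hemigymnus fish and above the highest Thalassoma fish at 4257 CPM, while ENSONIT00000026036.1 and ENSONIT00000007299.1 had 0 counts in it.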
